A study of Homo sapiens with 14 samples.

Results

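The 10 genes HSPA5, HYOU1, HSP90B1, CALR, PDIA4, PDIA6, DNAJB9, SDF2L1, HERPUD1 and XBP1 build and regulate the protein-folding machinery of the endoplasmic reticulum (ER), and were followed in RNA-seq libraries of K562, a human erythroleukemia line. They were taken by name from the deposited read count table, in which all 10 of the 10 listed genes were found among 24729, and all 10 passed the filter on low counts. The study measured total RNA in cells carrying a catalytically inactive Cas9 (dCas9) with guides to regulatory elements of the β-globin gene cluster, and asked how such targeting changes expression across the genome.

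The 14 libraries fall into 5 groups, and all come from K562 cells grown in the same medium. The sgHS1-5, sgHS2 and sgHBG groups (3 libraries each) stably express dCas9 with a Flag-bio tag, the biotin ligase BirA and guides to the elements in their names. HS1-5 and HS2 refer to hypersensitive sites of the β-globin locus control region, HS2 being its best known enhancer, and HBG to the γ-globin genes. The sgGal4 group (3 libraries) carries the same tagged dCas9 and BirA with a non-targeting guide, so it differs from the targeting groups by the guide, as far as the labels say. The WT group (2 libraries) is K562 without dCas9, BirA or a guide. The labels do not say whether each stable line is 1 clone or a mixed population, nor whether replicates came from separate cultures. The p-values below therefore weigh group differences against the spread between these libraries, which may be technical.

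Proteins that enter the endoplasmic reticulum are folded by lumenal chaperones, and unfolded protein there activates the sensors IRE1, PERK and ATF6. IRE1 splices the mRNA of XBP1 into the form that encodes an active transcription factor, ATF6 is cut in the Golgi to release another, and both raise the transcription of chaperone and degradation genes. PERK slows translation and raises ATF4, whose targets supply amino acids and stress regulators. Secretory cells such as plasma cells are the tissue best known for high levels of these genes.

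Promoters of these genes are known for the ER stress response element (ERSE), which is CCAAT, 9 bases of any kind and CCACG, for its shorter form ERSE-II, which is ATTGG, 1 base of any kind and CCACG, and for the XBP1-binding core TGACGTGG. Each was searched on both strands in the 250 bases before every start that RefSeq lists (GRCh38.p14), for the 10 genes and for 27305 genes in all. ERSE was found in 5 of the 10 genes (HSPA5, HSP90B1, CALR, PDIA6 and XBP1) and in 0.0916% of all genes. ERSE-II was found in 3 of the 10 (HYOU1, SDF2L1 and HERPUD1) and in 0.0659% of all genes. The XBP1-binding core was found in HYOU1 alone among the 10, where it overlaps an ERSE-II, and in 0.78% of all genes. In PDIA4 and DNAJB9 the exact letters of the 3 motifs are not in this window, although the parts CCAAT and CCACG each occur in all 10 genes, against 37.0% and 37.5% of all genes. Such a match is a description of the sequence and not a shown binding site. The promoters of HSPA5, with an ERSE, of HERPUD1, with an ERSE-II, and of HYOU1, with a pair of ERSE-II and the overlapping core, are printed because these genes had the largest differences of sgHS1-5 from sgGal4 cells below. They run 5′ to 3′ along the gene's strand, with the motifs in capitals.
HSPA5 (minus strand, chr9:125241344-125241593): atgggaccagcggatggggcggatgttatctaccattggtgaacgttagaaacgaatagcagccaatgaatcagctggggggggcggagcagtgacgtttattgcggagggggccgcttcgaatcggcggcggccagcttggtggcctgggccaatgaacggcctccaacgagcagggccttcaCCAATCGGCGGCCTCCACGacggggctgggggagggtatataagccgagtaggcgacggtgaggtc
HERPUD1 (plus strand, chr16:56931892-56932141): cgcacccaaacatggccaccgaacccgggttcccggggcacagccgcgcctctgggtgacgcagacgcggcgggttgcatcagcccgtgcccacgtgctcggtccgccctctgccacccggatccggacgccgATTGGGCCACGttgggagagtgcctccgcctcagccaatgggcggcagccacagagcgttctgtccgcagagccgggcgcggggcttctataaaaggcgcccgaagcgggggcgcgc
HYOU1 (minus strand, chr11:119057206-119057455): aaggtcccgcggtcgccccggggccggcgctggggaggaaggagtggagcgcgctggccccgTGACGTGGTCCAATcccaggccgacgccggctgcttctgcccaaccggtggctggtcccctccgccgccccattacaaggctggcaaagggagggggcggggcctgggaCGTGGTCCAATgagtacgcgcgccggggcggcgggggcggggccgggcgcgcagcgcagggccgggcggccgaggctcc

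The other matched sites are given alone, written in the direction of the motif, to show how far the 9 free bases of ERSE vary between genes. The XBP1 site lies closest to a start, 52 to 34 bases before it, and the CALR site farthest, 225 to 207 bases before it on the opposite strand.
HSP90B1, upstream site (chr12:103930216-103930234): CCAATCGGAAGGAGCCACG
HSP90B1, downstream site on the opposite strand (chr12:103930321-103930339): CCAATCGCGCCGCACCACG
CALR, opposite strand (chr19:12938384-12938402): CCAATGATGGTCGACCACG
PDIA6, at its other start (chr2:10812853-10812871): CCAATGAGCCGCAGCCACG
XBP1 (chr22:28800603-28800621): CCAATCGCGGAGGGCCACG
SDF2L1, opposite strand (chr22:21642114-21642124): ATTGGTCCACG

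Libraries held 5694448 to 11335831 counted reads, the sgHS1-5 libraries the fewest. All 9 K562 marker genes, GATA1 among them, were detected in every group. Library 1 of sgGal4 stood apart from its group (chi-square per degree of freedom 90.1 and 93.9 against the others, which differed from each other by 1.49), with short genes higher and long genes lower, and library 2 of sgHS2 did so more weakly (17.3 and 16.6). On the same measure, the sgHBG libraries differed by 1.25 to 1.44 and the WT libraries by 1.67. Library 2 of sgHS1-5 differed from libraries 1 and 3 by 18.4 and 12. Libraries 2 and 3 of sgHS1-5 held transcripts that K562 should lack: CDKN2A, lost from this line, was at 6.05 and 1.64 CPM there (counts per 1000000 counted reads), against 0.176 in sgHS1-5 library 1 and 0 in all other groups. The B cell factor PAX5 was at 39.6 and 9.82 in those libraries, against 1.76 in library 1 and at most 0.92 elsewhere. The B cell marker MS4A1 was at 42.1 and 10.6 there, at 2.63 in library 1 and at 0 in all other groups. Library 1 of sgHS1-5 thus held such transcripts too, at lower levels. The 5 B cell markers summed to 9.83 to 129 in sgHS1-5, and to 1.85 to 4.84 elsewhere. The 4 monocyte markers summed to 90.6 to 598 in sgHS1-5, against 111 to 195 in sgGal4 and 36.2 to 38.9 in WT. The 4 measured plasma cell markers summed to 43.7 to 50.2 in sgHS1-5, against 12.6 to 13.2 in sgHS2, 25.8 to 29.9 in sgHBG, 39.4 to 44.9 in sgGal4 and 13.9 to 14.3 in WT. The 4 measured T cell markers summed to 29.1 to 32.4 in sgHS1-5, 16.9 to 17.5 in sgHS2 and 11.4 to 14.5 in sgHBG, against 0.97 to 3.58 in sgGal4 and 2.95 to 4.66 in WT, without overlap between targeting and other groups. Most of this was CD3D, at 24.1 to 30.3 in sgHS1-5, with 27.7 in library 1, and at 0.618 to 2.74 in sgGal4, while CD2 was at 0 in sgHS2, sgGal4 and WT. The part of these markers in the results was not tested, and results that rest on sgHS1-5 are given with and without libraries 2 and 3, where the lone library is assumed to vary like the other groups.

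Per length, HSPA5, CALR, HSP90B1 and SDF2L1 held the top 4 places of the 10 in WT cells. In WT cells the authors' RPKM averaged 480 for HSPA5, 439 for CALR, 399 for HSP90B1 and 308 for SDF2L1, and 25.4 for DNAJB9, the lowest. In sgHS1-5 cells the order differed: CALR averaged 283 RPKM and HSP90B1 251, while HSPA5 stood in 5th place with 120. DNAJB9 was lowest in every group. The 5 groups differed for all 10 genes (edgeR quasi-likelihood F test of all group means, Benjamini-Hochberg adjusted p from 8.71e-07 for HYOU1 to 0.0224 for SDF2L1), where 67.1% of the 14406 genes tested passed. Values below are CPM on library sizes scaled by TMM, and differences are log2 with the standard error (SE). In bulk RNA, fewer cells with a transcript and less transcript per cell cannot be told apart.

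**Figure D1:**
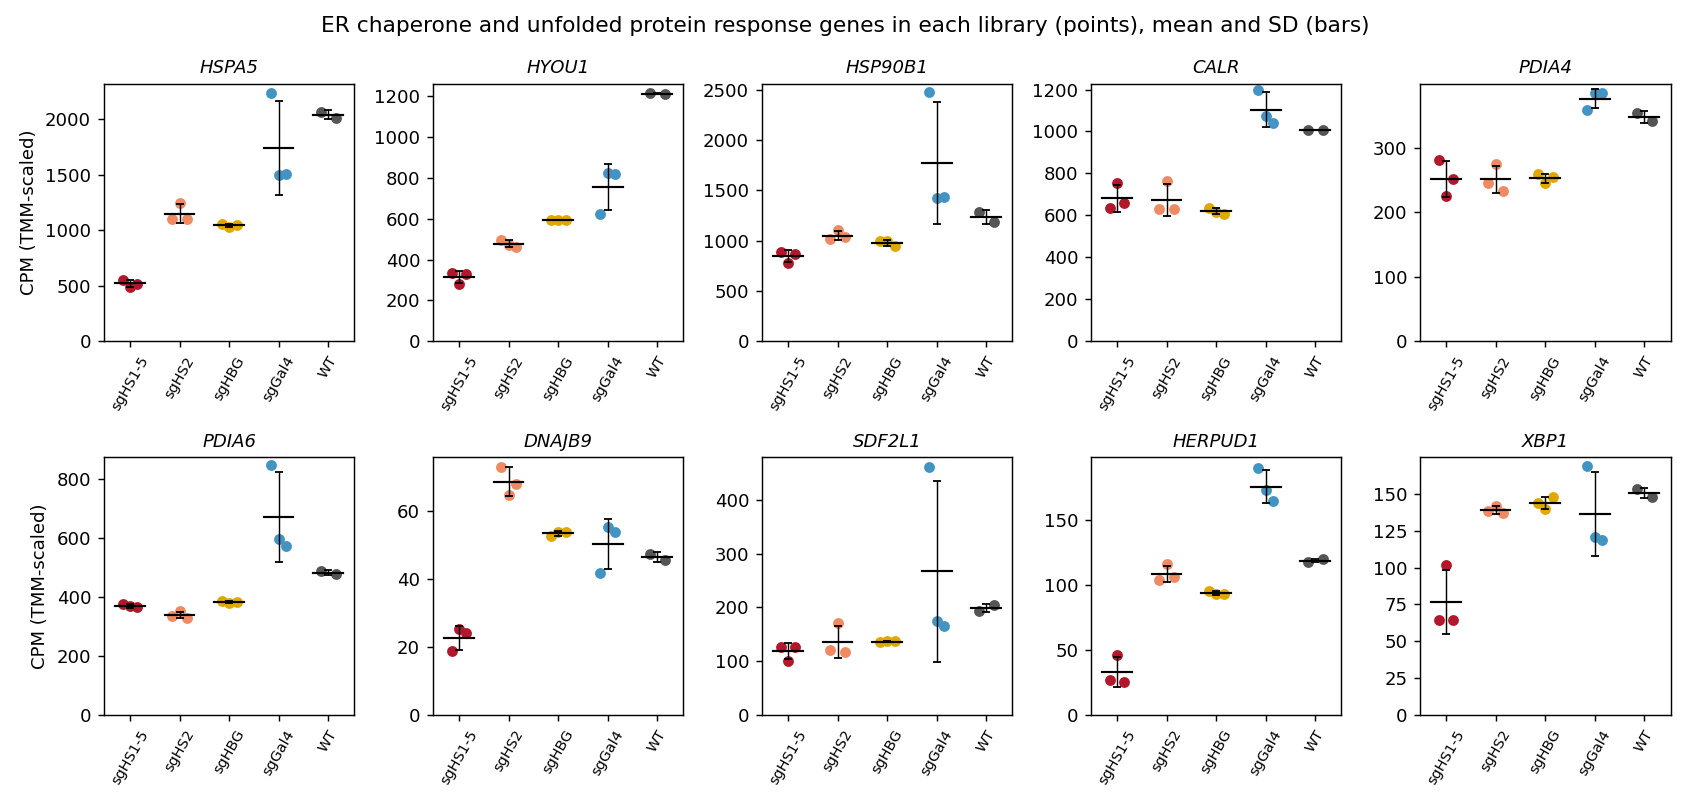
Expression of the 10 genes in every library, 1 panel per gene, in CPM on TMM-scaled library sizes. Each point is a library, the wide line the group mean and the bars the SD. HSPA5, HYOU1, HERPUD1, DNAJB9 and XBP1 sit lowest in all 3 sgHS1-5 libraries, and sgGal4 library 1 stands above its group most for SDF2L1, HSP90B1, HSPA5, PDIA6 and XBP1.

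HSPA5 encodes BiP, the Hsp70 chaperone of the lumen and the gene most often read as a marker of the unfolded protein response. It was at 551, 493 and 519 CPM in sgHS1-5 cells, at 1098, 1250 and 1100 in sgHS2 cells, at 1061, 1031 and 1047 in sgHBG cells, at 2236, 1496 and 1504 in sgGal4 cells, and at 2071 and 2013 in WT cells. The sgHS1-5 libraries were below every other library, and each targeting group lay below all sgGal4 and WT libraries. Against sgGal4, HSPA5 was 3.35-fold lower in sgHS1-5 (log2 −1.74, SE 0.145, adjusted p = 3.83e-06), 1.52-fold lower in sgHS2 (−0.60, SE 0.141, adjusted p = 0.0065) and 1.67-fold lower in sgHBG (−0.74, SE 0.141, adjusted p = 0.00278). Without libraries 2 and 3, the sgHS1-5 difference was −1.66 (adjusted p = 0.00142). Without sgGal4 library 1, the highest of its group, the differences were −1.53 in sgHS1-5, −0.39 in sgHS2 and −0.52 in sgHBG. The sgGal4 cells were then lower than WT (−0.44, adjusted p = 0.000317), a difference not called with all libraries (−0.23, adjusted p = 0.266).

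HYOU1, a large Hsp110-type protein that exchanges nucleotide on BiP, was at 332, 279 and 327 CPM in sgHS1-5 cells, at 497, 473 and 462 in sgHS2 cells, at 595, 595 and 592 in sgHBG cells, at 623, 825 and 817 in sgGal4 cells, and at 1213 and 1209 in WT cells. No groups overlapped, and WT held the highest levels. HYOU1 fell by 1.27 in sgHS1-5 against sgGal4 (SE 0.116, adjusted p = 7.04e-06; −1.19 and 0.00157 without libraries 2 and 3) and by 0.66 in sgHS2 (SE 0.114, adjusted p = 0.000912). In sgHBG the difference of −0.35 was only just called (adjusted p = 0.0427), and 16 of 28 other settings did not call it. Without sgGal4 library 1, the lowest of its group, this difference was −0.47 (adjusted p = 0.000458). HYOU1 was the only one of the 10 called lower in sgGal4 than in WT with all libraries (−0.68, SE 0.126, adjusted p = 0.000852).

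SDF2L1 takes part in BiP's cycle with J-domain cofactors and is a small lumenal protein. It was at 127, 101 and 127 CPM in sgHS1-5 cells, at 120, 171 and 117 in sgHS2 cells, at 135, 137 and 138 in sgHBG cells, at 461, 174 and 166 in sgGal4 cells, and at 194 and 205 in WT cells. The sgHS2 group overlapped sgGal4, and the other targeting groups lay below it. Against WT, no targeting group was called with all libraries (−0.75, −0.55 and −0.54 in sgHS1-5, sgHS2 and sgHBG). Without sgGal4 library 1, these differences were called (adjusted p = 0.000635, 0.00573 and 0.00623). The SDF2L1 level of sgGal4 rested on library 1, the library with a length trend. SDF2L1 is among the shortest genes tested (590 bases, percentile 3.66). In that library it deviated from the rest of its group by 1.43 on the log2 scale. The shortest genes had a median of 0.65 there and the longest −0.57. HSP90B1 and HSPA5, at length percentiles 59.8 and 74.3, deviated by 0.8 and 0.58, and HYOU1, at 84.5, by −0.4. Whether length accounts for the SDF2L1 level was not tested. SDF2L1 was lower in sgHS1-5 (−1.17, SE 0.318, adjusted p = 0.0113), sgHS2 (−0.97, adjusted p = 0.0337) and sgHBG (−0.96, adjusted p = 0.0414). Without sgGal4 library 1 these were −0.53 (adjusted p = 0.00997), −0.33 (adjusted p = 0.0902) and −0.32 (adjusted p = 0.117), so that the sgHS2 and sgHBG calls rested on that library. Without sgHS1-5 libraries 2 and 3, none of the 3 calls was kept (−1.06 with adjusted p = 0.184 in sgHS1-5). The sgHS2 and sgHBG differences were then the same as with all libraries, −0.97 and −0.96, and only their adjusted p moved (0.0504 and 0.0587).

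DNAJB9 (ERdj4), a J-domain co-chaperone of BiP, was the only one of the 10 called higher than sgGal4 in a targeting group. It was at 18.8, 25.3 and 24.3 CPM in sgHS1-5 cells, at 73.2, 64.7 and 68.2 in sgHS2 cells, at 52.8, 54.0 and 53.8 in sgHBG cells, at 41.8, 55.5 and 53.8 in sgGal4 cells, and at 47.5 and 45.6 in WT cells. The sgHS2 libraries were the highest of all and the sgHS1-5 libraries the lowest, with no overlap with other groups. DNAJB9 was 2.21-fold lower in sgHS1-5 than in sgGal4 (−1.14, SE 0.133, adjusted p = 4.39e-05; −1.42 and 0.000762 without libraries 2 and 3). In sgHS2 it was higher than in sgGal4 (0.45, SE 0.126, adjusted p = 0.0183) and than in WT (0.56, SE 0.143, adjusted p = 0.00887). The call against sgGal4 was lost in 2 of 28 other settings, among them without sgHS2 library 1 (0.40, adjusted p = 0.074), and that against WT in 5 of 28, among them without either WT library (0.59, adjusted p = 0.057, without library 1 and 0.53, adjusted p = 0.0822, without library 2) and on the RPKM scales. It overlaps PNPLA8 and THAP5 on the opposite strand (GENCODE v29), and the authors' counting is not stated to use strand, nor does the kit mark it, so reads from the shared stretch cannot be told apart. PNPLA8 averaged 31.1 CPM in sgHS1-5, 67.9 in sgHS2, 55.7 in sgHBG, 75.9 in sgGal4 and 66.7 in WT. THAP5 averaged 28.3 in sgHS1-5, 36.5 in sgHS2, 30.4 in sgHBG, 36.4 in sgGal4 and 39.5 in WT.

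HSP90B1 (GRP94), the Hsp90 of the lumen, was at 889, 783 and 868 CPM in sgHS1-5 cells, at 1015, 1104 and 1034 in sgHS2 cells, at 995, 992 and 947 in sgHBG cells, at 2477, 1421 and 1431 in sgGal4 cells, and at 1286 and 1183 in WT cells. All targeting libraries were below all sgGal4 and WT libraries. The differences from WT were not called in sgHS2 (−0.23, adjusted p = 0.4) or sgHBG (−0.34, adjusted p = 0.212). Without sgGal4 library 1, both had the same values and were called (adjusted p = 0.0138 and 0.00135). HSP90B1 fell by 1.07 in sgHS1-5 (SE 0.178, adjusted p = 0.000617), by 0.76 in sgHS2 (adjusted p = 0.00647) and by 0.86 in sgHBG (adjusted p = 0.00419) against sgGal4. Without sgGal4 library 1 these were −0.75, −0.44 and −0.54, and without sgHS1-5 libraries 2 and 3 the sgHS1-5 value was −1.0 (adjusted p = 0.0383). C12orf73, which overlaps HSP90B1 on the opposite strand, averaged 12.5 CPM in sgHS1-5, 14.2 in sgHS2, 13.5 in sgHBG, 16.8 in sgGal4 and 17.1 in WT. HYOU1 and CALR each overlap an antisense gene.

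CALR, calreticulin, a lectin chaperone that holds glycoproteins and binds calcium, was lower in each targeting group. It was at 634, 755 and 657 CPM in sgHS1-5 cells, at 630, 762 and 630 in sgHS2 cells, at 637, 617 and 607 in sgHBG cells, at 1198, 1074 and 1042 in sgGal4 cells, and at 1006 and 1005 in WT cells. Targeting libraries did not overlap with sgGal4 or WT. The differences from sgGal4 were −0.69 in sgHS1-5 (adjusted p = 0.000355), −0.71 in sgHS2 (adjusted p = 0.000344) and −0.83 in sgHBG (adjusted p = 0.000189), with an SE of 0.107 each. All 28 other settings called each of them, and the sgHS1-5 value without libraries 2 and 3 was −0.8 (adjusted p = 0.00715).

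Protein disulfide isomerases shuffle cysteine bonds, and PDIA4 and PDIA6 were lower in every targeting group. PDIA4 was at 281, 225 and 251 CPM in sgHS1-5 cells, at 245, 275 and 233 in sgHS2 cells, at 259, 245 and 255 in sgHBG cells, at 359, 385 and 385 in sgGal4 cells, and at 354 and 341 in WT cells. PDIA6 was at 377, 369 and 365 in sgHS1-5, at 335, 351 and 330 in sgHS2, at 388, 380 and 384 in sgHBG, at 847, 596 and 572 in sgGal4, and at 488 and 477 in WT. For both genes, targeting libraries lay below sgGal4 and WT with no overlap. The PDIA6 difference of sgHBG from WT was not called (−0.33, adjusted p = 0.089). It had the same value and was called without sgGal4 library 1 (adjusted p = 0.000392). Against sgGal4, PDIA4 fell by 0.58 in sgHS1-5 (adjusted p = 0.000798), 0.58 in sgHS2 (adjusted p = 0.000853) and 0.57 in sgHBG (adjusted p = 0.00153), with an SE of 0.1 each. PDIA6 fell by 0.86, 0.99 and 0.81 in sgHS1-5, sgHS2 and sgHBG (adjusted p = 0.000275, 0.000114 and 0.000773). Without sgGal4 library 1, the highest of its group for PDIA6, these differences were −0.66, −0.79 and −0.61. PDIA4 lost its sgHS1-5 call without libraries 2 and 3 (−0.42, adjusted p = 0.0507), while PDIA6 kept it (−0.83, adjusted p = 0.0189). PDIA6 shares its locus with ATP6V1C2 on the opposite strand, which averaged 130 CPM in sgHS1-5, 101 in sgHS2, 116 in sgHBG, 219 in sgGal4 and 179 in WT.

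HERPUD1, a membrane protein of the degradation machinery that extracts misfolded proteins, showed the largest difference of the 10 genes between sgHS1-5 and sgGal4. It was at 26.6, 46.2 and 25.8 CPM in sgHS1-5 cells, at 104, 116 and 106 in sgHS2 cells, at 95.9, 93.1 and 93.4 in sgHBG cells, at 190, 173 and 165 in sgGal4 cells, and at 118 and 120 in WT cells. The groups did not overlap, and library 2 of sgHS1-5 was the highest of its group. The differences from WT were not called in sgHS2 (−0.14, adjusted p = 0.623) or sgHBG (−0.34, adjusted p = 0.188). HERPUD1 was 5.35-fold lower in sgHS1-5 than in sgGal4 (−2.42, SE 0.182, adjusted p = 1.83e-06; −2.73 and 4.57e-06 without libraries 2 and 3). It was 1.62-fold lower in sgHS2 (−0.70, adjusted p = 0.00811) and 1.87-fold lower in sgHBG (−0.90, adjusted p = 0.00256).

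XBP1, the transcription factor of the IRE1 arm, was called lower than sgGal4 in sgHS1-5 and in no other targeting group. Gene counts do not separate its spliced and unspliced mRNA. It was at 64.1, 102 and 64.5 CPM in sgHS1-5 cells, at 138, 142 and 137 in sgHS2 cells, at 144, 140 and 148 in sgHBG cells, at 169, 121 and 119 in sgGal4 cells, and at 153 and 148 in WT cells. The sgHS1-5 libraries lay below all others, library 2 being the highest of its group. The sgGal4 group spanned the levels of sgHS2, sgHBG and WT only through library 1, and libraries 2 and 3 lay below them. The difference from sgGal4 was −0.82 (SE 0.176, adjusted p = 0.00298), and −1.08 without libraries 2 and 3 (adjusted p = 0.00437). In sgHS2 and sgHBG the differences were 0.03 (95% interval −0.36 to 0.42) and 0.08 (−0.31 to 0.47). Without sgGal4 library 1, XBP1 differed from sgGal4 by −0.64 in sgHS1-5 (adjusted p = 0.00405). The sgHS2 and sgHBG differences were then 0.21 and 0.26, neither called (adjusted p = 0.288 and 0.203).

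Set side by side, the targeting groups share the sgGal4 libraries, so their counts are not independent. All 10 genes were lower in sgHS1-5 than in sgGal4, where 20.2% of all genes tested were lower. In sgHS2, 8 were lower and DNAJB9 was higher, against 15.6% lower and 14.5% higher among all genes. In sgHBG, 8 were lower, against 12.6% of all genes. The median differences of the 10 were −1.11, −0.68 and −0.77 in sgHS1-5, sgHS2 and sgHBG, against 0.02, −0.02 and 0 for all genes. Without libraries 2 and 3 of sgHS1-5, 8 of the 10 were lower there, where 17.2% of all genes were called in either direction.

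**Figure D2:**
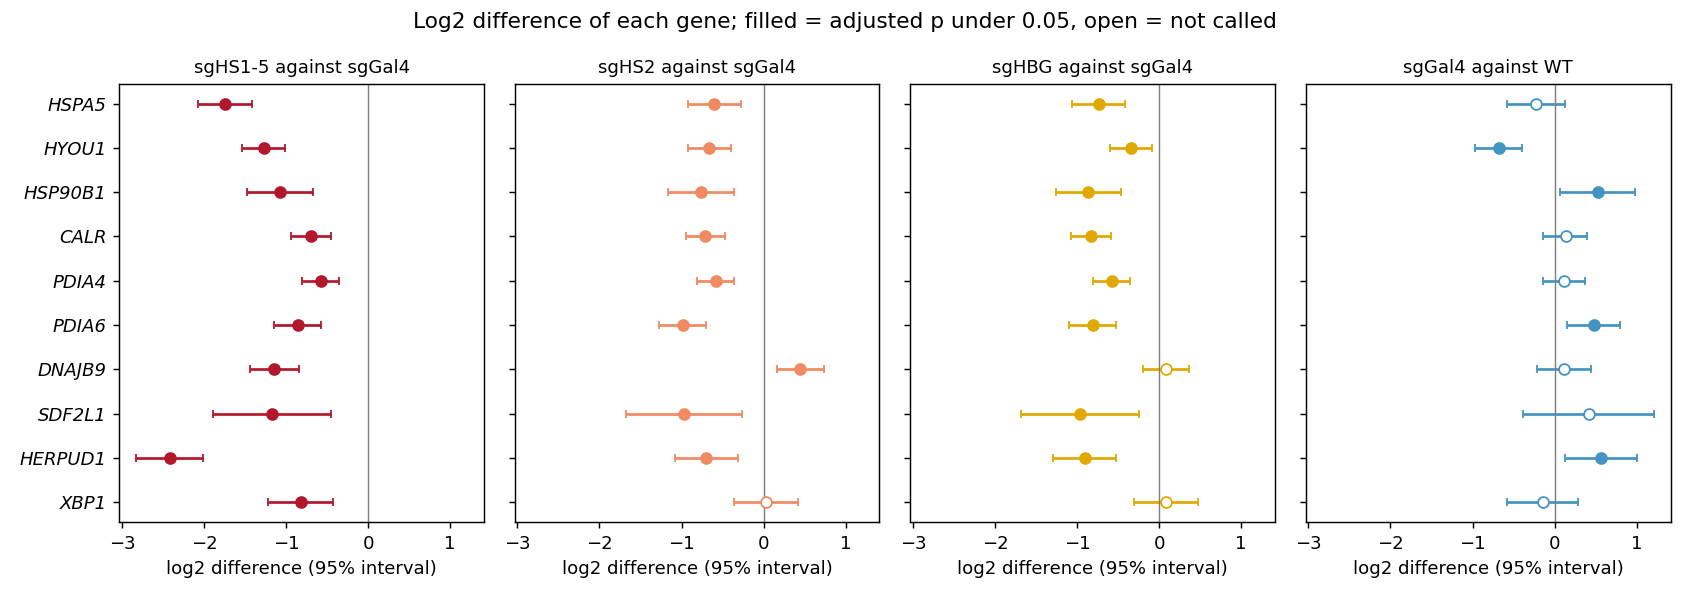
Differences from sgGal4, and of sgGal4 from WT, as log2 with 95% intervals, for the 10 genes. Filled points passed an adjusted p of 0.05. HERPUD1 and HSPA5 lie farthest to the left in sgHS1-5, and DNAJB9 is right of 0 in sgHS2.

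Compared directly between targeting groups, 5 of the 10 genes were called in sgHS1-5 and 5 were not, a split set by the call threshold. HERPUD1, DNAJB9, HSPA5, XBP1 and HYOU1 were lower in sgHS1-5 than in sgHS2 (18.5% of all genes were lower), by 1.72, 1.59, 1.14, 0.85 and 0.61 on the log2 scale (adjusted p = 1.86e-05, 3.33e-06, 7.16e-05, 0.00228 and 0.00127). The same 5 were lower in sgHS1-5 than in sgHBG (12.8% of all genes were lower), by 1.52, 1.23, 1.01, 0.91 and 0.93 (adjusted p = 9.41e-05, 4.57e-05, 0.000362, 0.00279 and 0.000144). For HSP90B1, CALR, PDIA4, PDIA6 and SDF2L1 the sgHS1-5 differences were −0.31 to 0.13 from sgHS2 and −0.21 to 0.14 from sgHBG, none called. The 95% intervals bounded them within −0.22 to 0.23 for PDIA4 against sgHS2, and more loosely, within −0.91 to 0.51, for SDF2L1. HSP90B1, although not called, was lower in every sgHS1-5 library than in all sgHS2 and sgHBG libraries (−0.31, 95% interval −0.71 to 0.09, against sgHS2). SDF2L1 lay below all sgHBG libraries, and PDIA6 lay below all sgHBG and above all sgHS2 libraries. Without sgHS1-5 libraries 2 and 3, all 5 calls against sgHBG were kept (HERPUD1 −1.82, DNAJB9 −1.51, XBP1 −1.17, HSPA5 −0.92 and HYOU1 −0.84), and HYOU1 lost its call against sgHS2 (−0.52, adjusted p = 0.0541). Exact motif matches occur on both sides of this split. The 5 lower genes hold ERSE (HSPA5, XBP1), ERSE-II (HERPUD1, HYOU1) or neither (DNAJB9) in the window searched. The other 5 hold ERSE (HSP90B1, CALR, PDIA6), ERSE-II (SDF2L1) or neither (PDIA4). Whether the motifs bear on the split was not tested. Between sgHS2 and sgHBG, edgeR called 0 of the 10, where it called 8.91% of all genes. At an unadjusted p under 0.05, 2 of the 10 differed, DNAJB9 (0.36) and HYOU1 (−0.32). DESeq2 called 2 and limma voom 0.

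**Figure D3:**
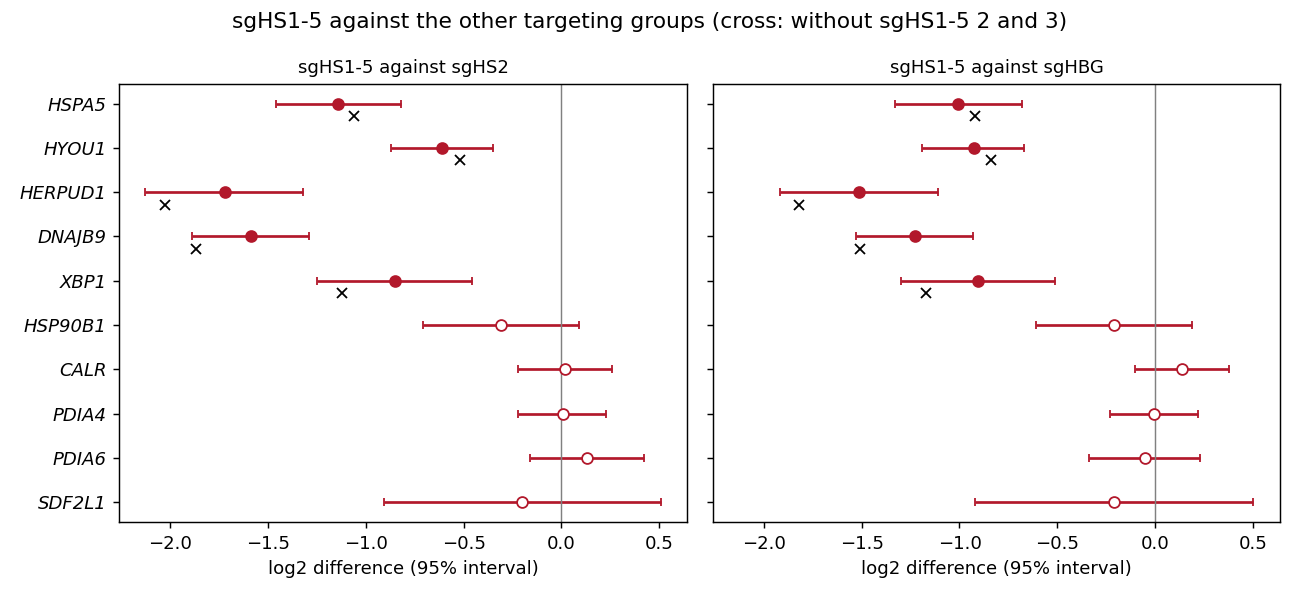
Log2 difference of sgHS1-5 from sgHS2 (left) and from sgHBG (right) for the 10 genes, with 95% intervals. Filled points passed an adjusted p of 0.05, and crosses, drawn for those genes, show the value without sgHS1-5 libraries 2 and 3. The upper 5 genes lie left of 0 in both panels, and the intervals of the lower 5 include 0.

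The sgGal4 cells, which differ from WT by tagged dCas9, BirA and the guide, held higher and lower genes. Against WT, sgGal4 cells had higher HERPUD1 (0.56, adjusted p = 0.0319), HSP90B1 (0.53, adjusted p = 0.04999) and PDIA6 (0.48, adjusted p = 0.0174) and lower HYOU1, 3 and 1 of 10 where 22.7% and 19.6% of all genes were higher and lower. The HSP90B1 call was lost in 20 of 28 other settings. Without sgGal4 library 1, the HERPUD1, HSP90B1 and PDIA6 differences were 0.5, 0.21 and 0.28. Against WT, sgHS1-5 cells had 9 of the 10 lower (19.5% of all genes), led by HSPA5 (−1.97, adjusted p = 1.05e-06), HYOU1 (−1.96, adjusted p = 1.98e-07) and HERPUD1 (−1.86, adjusted p = 9.65e-06). Without libraries 2 and 3 these were −1.89, −1.87 and −2.16, and 6 of the 10 were lower, where 26.7% of all genes were called in either direction, HSP90B1 (−0.47, adjusted p = 0.273), PDIA4 (−0.31, adjusted p = 0.127) and PDIA6 (−0.36, adjusted p = 0.245) losing their calls. In sgHS2, 5 were lower and DNAJB9 higher (15.5% and 17.6% of all genes), and in sgHBG 4 were lower (15.9%), HYOU1 and HSPA5 falling most in both. These comparisons share the WT libraries.

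The 10 genes together took 0.344 to 0.358% of counted reads in sgHS1-5, 0.431 to 0.449% in sgHS2, 0.44 to 0.446% in sgHBG, 0.601 to 0.638% in sgGal4 and 0.69 to 0.708% in WT. HSPA5 alone took 0.0533 to 0.0598% in sgHS1-5, 0.111 to 0.119% in sgHS2, 0.106 to 0.108% in sgHBG, 0.143 to 0.166% in sgGal4 and 0.206 to 0.211% in WT. The 5 groups did not overlap in the summed share, except sgHS2 with sgHBG.

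**Figure D4:**
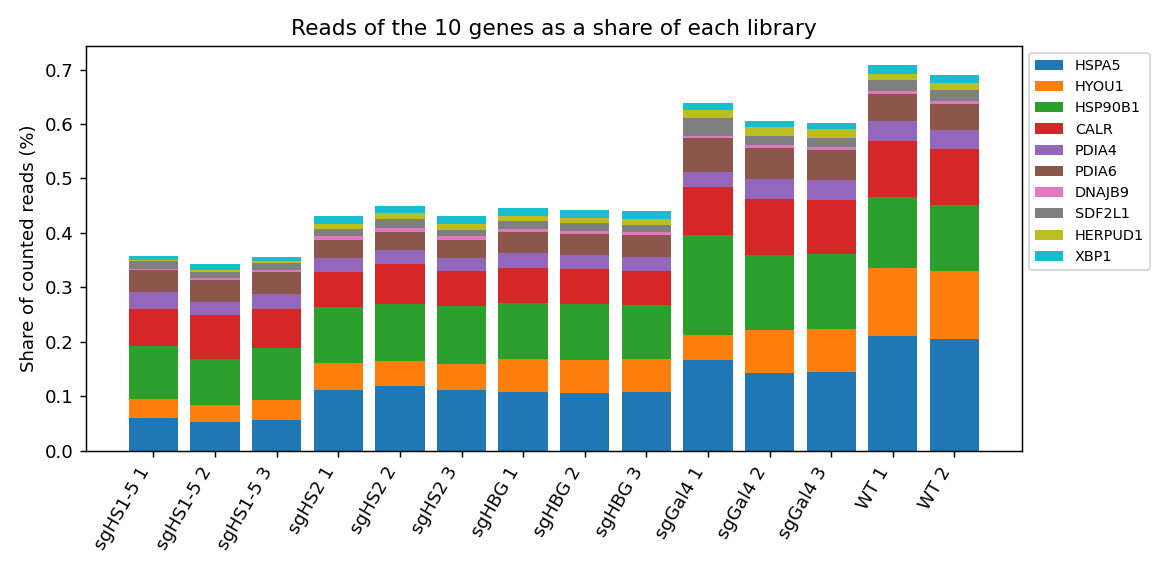
Share of each library's counted reads taken by the 10 genes (stacked, % of reads), by library. The bars are lowest in sgHS1-5, intermediate and alike in sgHS2 and sgHBG, and highest in sgGal4 and WT.

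Genes of the surrounding pathway, from 8 lists, were read from the same tests. In sgHS1-5 against sgGal4, 11 of 15 further chaperones and co-chaperones were lower and 1 was higher, against 20.2% and 20.3% of all genes, with CALU (−1.26), DNAJC1 (−1.29) and DNAJB11 (−1.05) having the lowest p. Of 20 oxidoreductases and prolyl isomerases 14 were lower and 2 higher, the collagen prolyl isomerase FKBP10 with the lowest p (−2.14), and of 25 translocon and signal peptide genes 16 were lower and 1 higher. In the COPII and ER-Golgi transport list, 16 of 21 were lower, with KDELR2, the receptor that returns chaperones to the ER, at −1.44 and KDELR3 at −1.71. The PERK and ATF4 list was lower in 18 of 20 genes, with a median of −1.31, and asparagine synthetase ASNS averaged 76.62 CPM in sgHS1-5 and 933 CPM in sgGal4 (−3.61, adjusted p = 4.4e-08). Of 20 cytosolic and mitochondrial chaperones 7 were lower (median −0.23), the lowest p being that of the mitochondrial Hsp70 HSPA9 (−1.07). ER-associated degradation had 9 of 20 lower, the lectin ERLEC1 first (−1.45), and sensors and proteases had 6 of 11 lower and 2 higher. Without libraries 2 and 3 of sgHS1-5, where 17.2% of all genes were called in either direction, the lower counts were 9 chaperones, 10 oxidoreductases, 10 translocon genes, 12 transport genes, 18 PERK and ATF4 genes, 2 cytosolic and mitochondrial chaperones, 7 degradation genes and 2 sensors or proteases. Without sgGal4 library 1, where 46% of all genes were called, 14 degradation genes were lower. Of the cytosolic and mitochondrial chaperones, 6 were then lower and 4 higher, with a median of 0.01.

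The same lists were read in the other comparisons. In sgHS2 against sgGal4, where 15.6% of all genes were lower and 14.5% higher, 4 of 15 further chaperones were lower, among them SIL1, a BiP exchange factor (−1.08), and MANF (−0.96), and 6 of 20 PERK and ATF4 genes were higher and 1 lower, with ATF5 at 1.84. Without sgGal4 library 1, 10 of those 20 were higher, in a setting where 38% of all genes were called in either direction. The ATF6-cutting proteases MBTPS1 (0.79) and MBTPS2 (1.48) were higher in sgHS2, and likewise in sgHBG (MBTPS1 0.54, MBTPS2 1.24). In sgHBG, where 12.6% of all genes were lower, 10 of 21 COPII and transport genes and 8 of 20 oxidoreductases were lower. In sgGal4 against WT, where 22.7% of all genes were higher and 19.6% lower, 16 of 20 cytosolic and mitochondrial chaperones were higher, HSPA8 by 2.18, and 10 of 20 PERK and ATF4 genes were lower and 2 higher, with TRIB3 at −1.43.

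**Figure D5:**
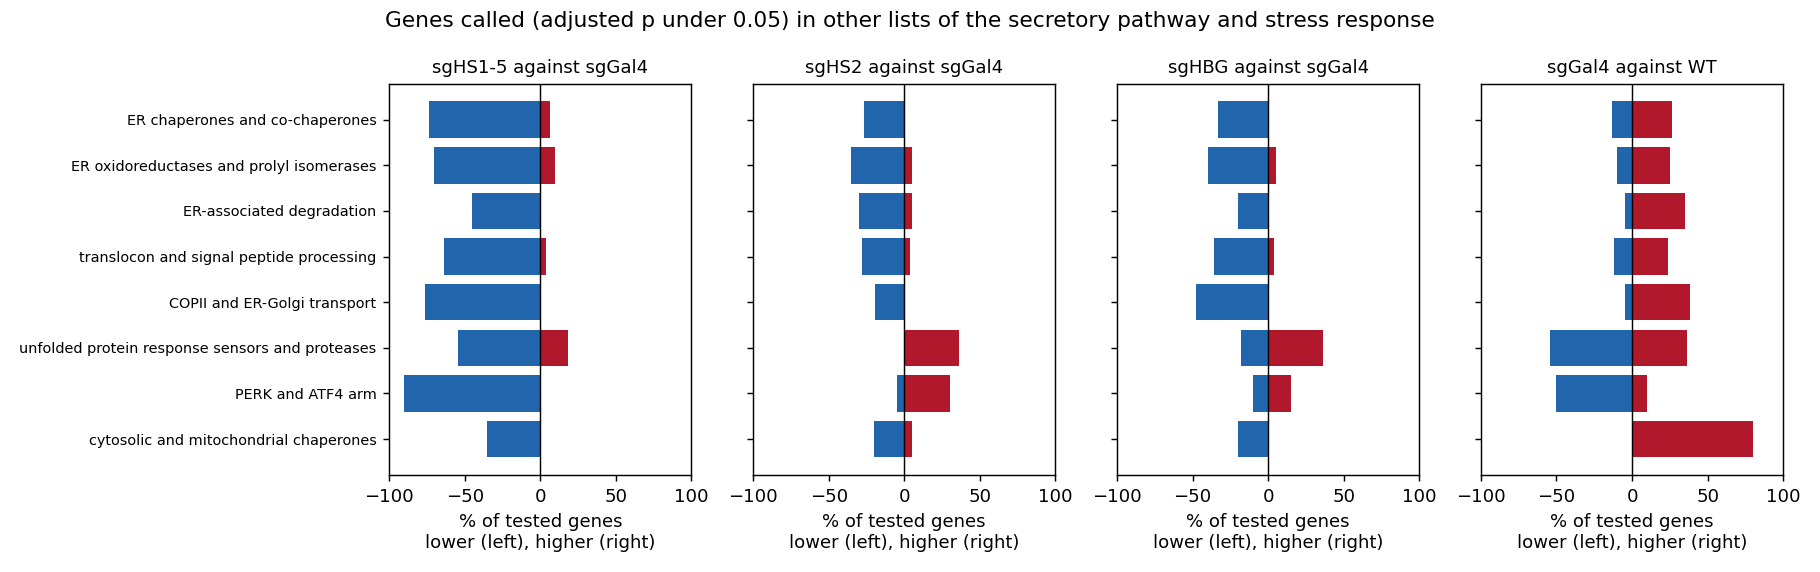
Share of the tested genes of each of the 8 lists that were called lower (blue, drawn to the left) or higher (red, drawn to the right), in % of the list, for 4 comparisons. The longest bar to the left is the PERK and ATF4 list in sgHS1-5, 18 of 20 genes, and the longest to the right the cytosolic and mitochondrial chaperones in sgGal4 against WT, 16 of 20.

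Over the 14 libraries, all 45 pairs of the 10 genes were positively correlated (Pearson's r of log2 CPM from 0.01 to 0.93, median 0.71). HSPA5 followed the mean of the other 9 most closely (r = 0.95) and DNAJB9 least (r = 0.43). The points share groups of 2 or 3 libraries, and the values are a description. Of 10819 other genes, EIF2A (r = 0.981), SERPINF1 (0.973), the alanyl-tRNA synthetase AARS (0.969) and EDEM2 (0.961), a mannose-trimming protein of the degradation pathway, had patterns most like the mean of the 10. AARS averaged 359 CPM in sgHS1-5, 924 in sgHS2, 796 in sgHBG, 1500 in sgGal4 and 1280 in WT.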

How the data were processed

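Libraries were made from total RNA of K562 cells with Illumina's TruSeq RNA kit, per the labels' protocols. Reads were processed by the authors with TopHat, Cufflinks and DESeq on hg19, per the submitters' processing notes, and versions and counting rules are not given in the sources used here. The authors deposited a table of raw read counts per gene and one of RPKM values per gene, used here as an alternative scale and to compare genes per length.

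Counts were analysed with edgeR 4.0.16 (R 4.3.3): filterByExpr (minimum count 10, total 15) left 14406 genes, TMM factors scaled the 14 libraries, 1 mean was fitted per group (9 residual degrees of freedom), and quasi-likelihood F tests were adjusted by Benjamini-Hochberg over all genes and called at 0.05. Intervals are 95%. The fit was tested on simulated data. The labels give no batch. All 10 genes are named, from each list at most the 3 genes with the lowest p among those called, and the genes most like the 10 by correlation among those with a mean of at least 5 CPM. Members and lists were chosen with earlier results of these data known. Alternatives were DESeq2 1.42.0, limma 3.58.1 (voom, and limma-trend on log2 RPKM plus 1 or 0.1), other filters, fits of only the groups compared, a replicate block, libraries left out, and, added after seeing the data, an offset for transcript length. Gene overlaps came from GENCODE v29 and promoters from RefSeq (GRCh38.p14). No hg19 genome was used.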

Additional observations from a re-analysis of the deposited data

How the results depend on the processing

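Of the counts of the 10 genes called in each comparison under each alternative, 285 stayed within 1.5 times the main count and 22 did not. The sgHS2 and sgHBG difference (0 called) gave 2 by DESeq2, 3 fitted on those groups only, 3 without sgGal4 1 and sgHS2 2, 6 without the 4 libraries that stood apart (sgGal4 1, sgHS2 2, sgHS1-5 2 and 3), and 1 with a length-trend offset without sgHS1-5 2 and 3. Fitting only the groups compared gave 5 in sgHS2 and 5 in sgHBG against sgGal4, 1 in sgGal4 against WT and 9 in sgHBG against WT. For sgGal4 against WT (4 called), RPKM plus 0.1 gave 2, unfiltered RPKM plus 1 gave 2 and leaving out these 4 libraries gave 10. For sgHBG against WT (4 called), leaving out sgGal4 1 and sgHS2 2 gave 7, the 4 libraries 9, and the length offset without sgHS1-5 2 and 3 gave 7. Without the 4 libraries, sgHS2 against WT gave 10 and sgHS1-5 against sgHS2 gave 8. The causes were not tested.

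Leaving out each library in turn gave 10 to 10 calls in sgHS1-5, 7 to 9 in sgHS2 and 6 to 8 in sgHBG against sgGal4, 1 to 5 in sgGal4 against WT, 7 to 10 in sgHS1-5, 3 to 8 in sgHS2 and 3 to 7 in sgHBG against WT, 5 to 6 in sgHS1-5 against sgHBG, 5 to 6 in sgHS1-5 against sgHS2 and 0 to 3 in sgHS2 against sgHBG. With the replicate number as a block, sgHS2, sgHBG and sgHS1-5 gave 8, 6 and 10 calls against sgGal4, and no count moved by over 1.5 times. Same-numbered libraries deviated from their group means with correlations of −0.07 to 0.09, except between sgGal4 and sgHS2 (−0.46, −0.52 and 0.35). The sgGal4 and sgHS2 groups each hold a library that stood apart. The check cannot tell whether same-numbered libraries shared a culture or day.

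Single-gene differences between targeting groups were followed only where the main fit called them, so new calls there are not counted here. Of the differences followed, 2057 kept direction and side of the threshold, 53 passed it newly and 118 lost it. Another 12 reversed, on either side of the threshold. DNAJB9 in sgGal4 against WT was −0.03, −0.04 and −0.03 on the RPKM scales. Without sgGal4 1, without it and sgHS2 2, and without the 4 libraries, DNAJB9 in sgHBG against sgGal4 was −0.03, −0.04 and −0.03, and SDF2L1 in sgGal4 against WT was −0.23, −0.22 and −0.23. XBP1 in sgHS2 against sgGal4 was −0.05 without sgGal4 2 and −0.06 without sgGal4 3, and in sgHBG −0.01 without sgGal4 3. Over all libraries left out in turn, these ranged from −0.06 to 0.21 and from −0.01 to 0.26, DNAJB9 in sgHBG from −0.03 to 0.16, and SDF2L1 in sgGal4 against WT from −0.23 to 0.67.

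Groups of 2 or 3 libraries limit the precision, and sgHS1-5, with the fewest reads, also holds the libraries with transcripts foreign to K562.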
